A study of Mus musculus with 16 samples.

Results

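The genes described here are 48 autophagy and mitophagy genes, listed by symbol from the initiation kinases to the receptors that mark mitochondria for removal. Of these, 44 had a row under that symbol in the authors' table of all 25905 genes. Atg101, Tfeb and Tfe3 were found only under older symbols and are given apart, and Atg14 was matched under none. The libraries came from the right-eye retinas of wild-type male C57BL/6 mice labelled as 10 weeks old, 8 of a spaceflight group that lived on the International Space Station and 8 of a ground control group kept on Earth in the same type of housing. The paper describes the mice as 10 weeks old when flown, and the eyes were collected after the flight and the return to Earth. The labelled age is thus not the age at collection. Each library was made from 100 ng of total RNA of whole retina with a stranded kit.

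The level of each gene is the authors' mean normalized count, which is the mean over all 16 libraries of read counts divided by the size factors of DESeq2. It pools both groups and has no SD and no n. The columns of counts per library carry codes that match no label, so no value is given per mouse and flight was not compared with ground. Without a spread between mice, no difference between the levels of any 2 genes was tested, and neighbours in each order below may not differ. Since a longer transcript gives more reads, levels were compared between genes per kilobase of the longest protein-coding transcript of the gene. A total of 16355 genes had a mean above 0 and such a length, and these are referred to as ranked genes. In bulk retina, fewer cells of a type and less RNA per cell cannot be told apart.

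Autophagy encloses cytoplasm, protein aggregates or whole organelles in a double membrane, the autophagosome, and delivers them to the lysosome for breakdown. A kinase complex starts the process, a lipid kinase complex marks the membrane, lipid transfer proteins enlarge it, and a conjugation machinery attaches small ubiquitin-like proteins of the ATG8 family to it, which cargo receptors then bind. Mitophagy is the same route used for mitochondria, and in the retina photoreceptors and the pigment epithelium both depend on autophagy to renew their contents.

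Most markers of the labelled tissue were high, but not all. Among rod markers, the mean normalized count was 154477 for Gnat1, the alpha subunit of rod transducin, and 88.9 for Nrl, a transcription factor of rods that was counted over 2 transcripts. Those of 6 cone markers ran from 537 to 2800. Bipolar cell markers ran from 675 to 4239, and markers of amacrine and horizontal cells from 47.7 (Lhx1) to 2415 (Gad1). Ganglion cell markers ran from 5.53 (Rbpms) to 1729.5 (Thy1), and Müller glia markers from 1.39 (Rlbp1) to 17455 (Glul). Markers of tissue next to the retina were also present, with 5 lens markers from 8.74 to 898 (Cryaa) and 6 markers of pigment epithelium and melanocytes from 2.72 to 540 (Ttr). The 5 microglial markers lay between 4.08 and 87.6, and the 4 muscle markers between 0 and 8.94. The part of any of these cells in the levels below was not tested.

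Most of the autophagy and mitophagy genes were well expressed. Their median level was 137 per kilobase, against 26.2 for all ranked genes, and the median member stood above 80.5% of ranked genes. Of the 44 genes, 39 were above the median of all ranked genes and 14 were in the top 10%, which began at 255 per kilobase. Together they held 0.499% of the summed mean normalized count of all genes. Levels spread from 2.05 per kilobase for Atg4c, a protease of the conjugation system, to 1423 for Gabarapl1, a member of the ATG8 family.

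**Figure D1:**
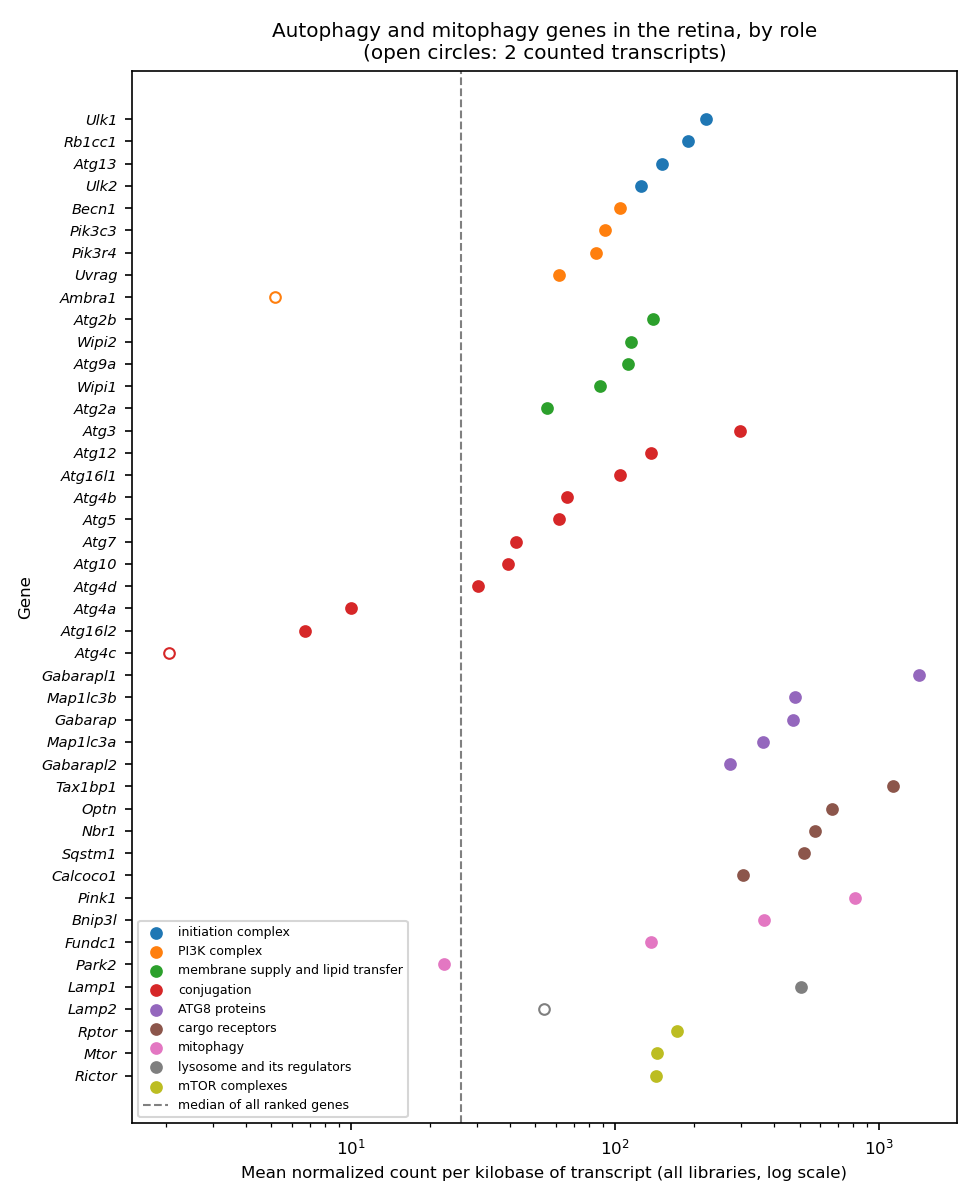
Mean normalized count per kilobase over all libraries (horizontal axis, log scale) of each of the 44 genes, 1 circle a gene, ordered and coloured by role, with the median of all ranked genes (26.2) as a dashed line. By the median of the role, cargo receptors (574) and ATG8 proteins (471) lie furthest to the right. Single genes of other roles, such as Pink1 (808) and Lamp1 (505), lie among them. The 5 genes left of the line are Ambra1, Atg4a, Atg16l2, Atg4c and Park2.

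Few of the members were at the low levels where many other genes lay. The middle 50% of the members lay between 61.4 and 321 per kilobase, while that of the 16311 other ranked genes lay between 1.77 and 103. A further 72 genes of the same pathway with a level above 0 had a median of 116 per kilobase and a middle range of 63.5 to 252.

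**Figure D2:**
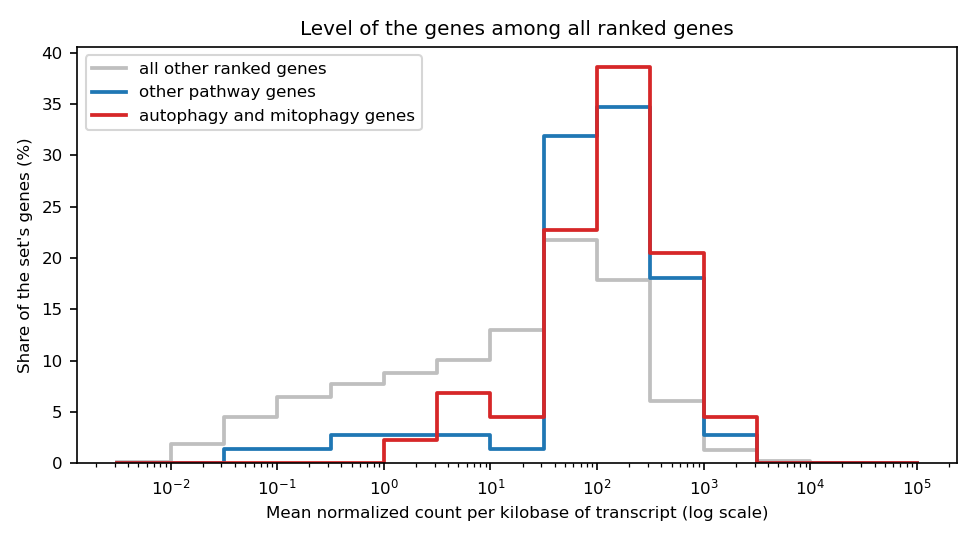
Share of each set's genes (vertical axis, %) by mean normalized count per kilobase (horizontal axis, log scale), for the 44 autophagy and mitophagy genes, 72 other pathway genes and the 16311 other ranked genes. The first 2 sets rise together above about 30 per kilobase, in a step with 22.7% of the members and 21.8% of other ranked genes. The next step is the tallest for the members, with 38.6% against 17.9% of other ranked genes.

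The initiation complex phosphorylates the next components once nutrients or growth signals fall. All 4 genes found were expressed within a narrow range, with a median of 170 per kilobase. Ulk1, the main kinase, was highest per kilobase, with a mean normalized count of 1155, or 222 per kilobase. Its paralogue Ulk2 was lowest per kilobase, with 719, or 125 per kilobase. Rb1cc1, the scaffold of the complex, had 189 per kilobase and Atg13, which bridges kinase and scaffold, had 151 per kilobase. Undivided, Rb1cc1 was highest with 1435 and Atg13 lowest with 543. Ulk1 stayed above Ulk2 under every length used, by 1.58-fold to 2.58-fold. The order of Rb1cc1 and Atg13 was less stable, with a ratio from 0.859 (coding length) to 2.64 (no division). Atg101, which stabilises Atg13, had a mean of 74.6 under its older symbol 9430023L20Rik, or 58.7 per kilobase, below all 4.

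Of the mTOR complexes, the first holds initiation in check when nutrients are plentiful. The 3 genes of these complexes were close to each other per kilobase of the longest transcript. Rptor, the subunit that recruits substrates to the first complex, had 172 per kilobase. Mtor, the kinase itself, had 144, and Rictor, the defining subunit of the second complex, had 143. Without division by length the ratio of Rptor to Rictor turned from 1.20 to 0.851, and with the shortest transcript Mtor rose to 1232 per kilobase while the other two were unchanged, so no order was established among the 3.

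The PI3K complex produces the phosphoinositide that marks the growing membrane. Its median was 84.9 per kilobase over 5 genes. Becn1, the scaffold, was highest with a mean of 455, or 104 per kilobase. Pik3c3, the catalytic subunit, had 91.6 per kilobase, Pik3r4, its regulatory subunit, had 84.9, and Uvrag, which defines the form of the complex acting at endosomes, had 61.4. With the shortest transcript Becn1 rose to 628 per kilobase and Pik3r4 to 312, against 99.6 for Pik3c3 and 61.4 for Uvrag, so how close these 4 lay depends on the length used. Ambra1, a regulator that binds Becn1, stood apart with a mean of 26.7, or 5.14 per kilobase, above only 33.6% of ranked genes. Ambra1 is also 1 of the 3 members counted over more than 1 transcript, which is described further on.

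Proteins that read the lipid mark and feed the membrane had a median of 112 per kilobase over 5 genes. Per kilobase of the longest transcript, the lipid channel Atg2b was highest, with a mean of 1049 and 139 per kilobase. Its paralogue Atg2a was lowest, with 351 and 55.1 per kilobase, and the ratio of the pair stayed between 2.52 and 2.99 under every length. Atg9a, the only transmembrane protein of the core machinery, had 112 per kilobase. Wipi2 and Wipi1, which bind the phosphoinositide, had 115 and 87.9 per kilobase. Their ratio turned from 1.31 to 0.802 when the length of the counted transcript was used, so that pair has no stable order. By coding length Wipi2 was the highest of the 5, with 445 per kilobase against 169 for Atg2b.

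The conjugation machinery had the lowest median of the roles, 42.3 per kilobase over 11 genes, and the widest range. By coding length the PI3K complex was lowest, with 112 against 127. Atg3, the enzyme that passes ATG8 proteins to lipid, had a mean of 610, or 297 per kilobase, the highest per kilobase of the longest transcript. Atg7, the activating enzyme upstream of it, had 165, or 42.3 per kilobase, and Atg10, the enzyme that joins Atg12 to Atg5, had 62.1, or 39.2 per kilobase. Atg12 had a mean of 655, above that of Atg3, and was also higher by coding length, with 1547.5 against 648 per kilobase. By the longest transcript Atg12 stood at 137 per kilobase and its partner Atg5 at 61.3, a ratio of 2.24 that rose to 8.85 with coding length. Levels of the enzymes of 1 chain thus differed by several fold.

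The proteases of the Atg4 family, which trim ATG8 proteins before conjugation and release them afterwards, fell in the order Atg4b, Atg4d, Atg4a and Atg4c. Atg4b had a mean of 275, or 65.9 per kilobase, and Atg4d had 180, or 30.3 per kilobase. Atg4a had 22.0, or 9.99 per kilobase, and Atg4c 6.52, or 2.05 per kilobase, over 2 counted transcripts. On the scale of windows held by a single transcript, given further on, Atg4c (12.2) stood above Atg4a (10.3). There Atg4c was taken over its own windows only. Atg4a was taken over all 2128, of which 1107 are also held by other genes. These 2 genes were thus not treated alike, and their order is not settled. Atg4b exceeded Atg4a by 6.60-fold to 12.6-fold over the lengths used. The scaffolds of the last step also differed, with Atg16l1, which places conjugation on the membrane, at 104 per kilobase and its paralogue Atg16l2 at 6.69. That ratio was 15.6 and ran from 5.24 to 15.6 over the lengths used.

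ATG8 proteins are the ubiquitin-like tags attached to the membrane, and their family splits into the LC3 and GABARAP branches. All 5 were above at least 90.6% of ranked genes, with a median of 471 per kilobase. Gabarapl1 had a mean of 2591, or 1423 per kilobase, above 98.9% of ranked genes. Map1lc3b, the form most used to track autophagosomes, had 1267, or 481 per kilobase, and Gabarap had 637, or 471 per kilobase. Map1lc3a had 404, or 363 per kilobase, and Gabarapl2 had 458, or 273 per kilobase. Gabarapl1 exceeded each of the other four by at least 2.05-fold under every length used, up to 17.6-fold over Gabarapl2. Without division by length the family fell from the second to the sixth highest of the 9 roles.

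Cargo receptors bind both cargo, often tagged with ubiquitin, and ATG8 proteins, and had the highest median of the roles, 574 per kilobase over 5 genes. Tax1bp1, which carries ubiquitin-binding zinc fingers, was highest with a mean of 3727, or 1134 per kilobase. This was the largest undivided level of any member. Optn, a receptor for mitochondria and aggregates, had 662 per kilobase, Nbr1, a large receptor for aggregates, had 574, and Sqstm1, the classical receptor for aggregates, had 519. Calcoco1, a receptor linked to the endoplasmic reticulum, was lowest with 909, or 306 per kilobase, and still above 91.9% of ranked genes. Cargo receptors were first under every length used except the coding length, where the ATG8 proteins were first. With the shortest transcript the medians of these 2 roles were nearly equal, 849.4 against 849.3 per kilobase. The ratio of Tax1bp1 to Sqstm1 fell from 2.19 to 1.03 with the shortest transcript, at which the pair was nearly equal.

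Of the mitophagy genes, the kinase Pink1 and the ubiquitin ligase Park2 (Parkin), which act in succession on damaged mitochondria, stood far apart. Pink1 had a mean of 1919.6, or 808 per kilobase, the third highest member. Park2 had 71.8, or 22.4 per kilobase, below the median of all ranked genes. Their ratio was 36.0 and ran from 13.4 to 36.0 over the lengths used. The receptors that act without Parkin lay between them per kilobase of the longest transcript, while by coding length Bnip3l (1834.5) was above Pink1 (1103). Bnip3l, which sits in the outer mitochondrial membrane, had 368 per kilobase and Fundc1, a second receptor of that membrane, had 137, although the pair turned to 0.609 with the shortest transcript.

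Among the lysosomal genes, Lamp1 and Lamp2 encode the main glycoproteins of the lysosomal membrane. Lamp1 had a mean of 1127, or 505 per kilobase, above 96.0% of ranked genes. Lamp2 had 193, or 53.7 per kilobase, and was counted over 2 transcripts. The ratio of Lamp1 to Lamp2 was 9.42 and ran from 4.62 to 9.42 over the lengths used. The transcription factors that drive lysosomal genes were listed with low values under their older symbols. Tfeb (listed as Tcfeb) had 5.55, or 2.37 per kilobase, over 3 counted transcripts, and Tfe3 (listed as Tcfe3) had 1.03, or 0.304 per kilobase, over 2.

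The number of transcripts counted for a gene moved with its level. The deposited count tables list 31616 transcripts for the 25905 symbols. Protein-coding genes with 1 counted transcript (17472 genes) had a median mean normalized count of 46.6. For the 2197 genes with 2 the median was 1.44, and for the 1029 with more it was 1.38. The share of genes under 10 was 40.1% with 1 transcript, 70.3% with 2 and 75.3% with more. The 41 members with 1 transcript ran from 22.0 to 3727 with a median of 594. The 3 members with 2 were Atg4c, Ambra1 and Lamp2, with 6.52, 26.7 and 193. The part of the transcript number in their low levels was not tested.

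**Figure D3:**
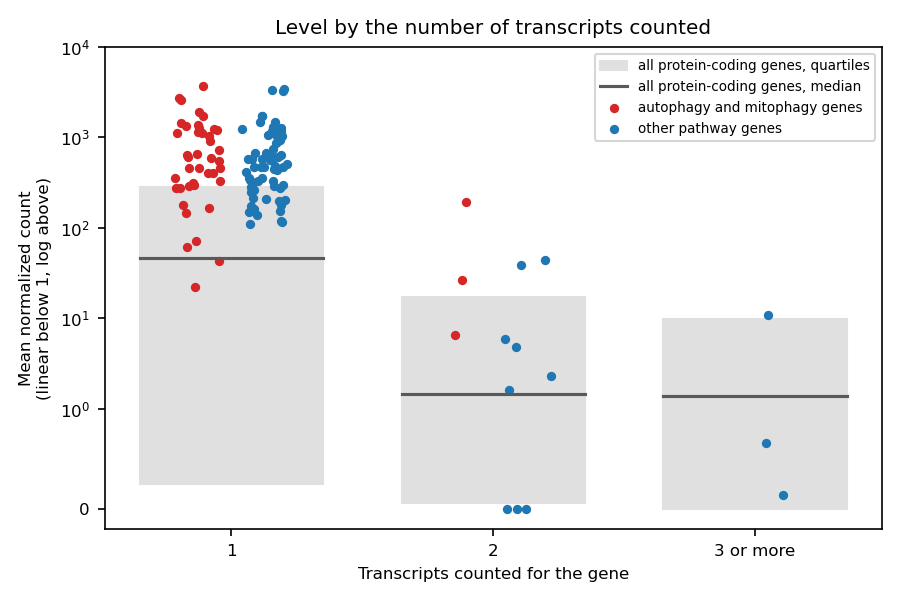
Mean normalized count (vertical axis, linear below 1 and log above) of the autophagy and mitophagy genes and of 75 other pathway genes, 1 point a gene, by the number of transcripts counted for the gene (horizontal axis), over grey boxes for the middle 50% of all protein-coding genes with a line at the median. Other pathway genes with 1 transcript all lie at 109 or above, and those with more at 43.8 or below.

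For these 3 members, and for Tfeb and Tfe3, the stretches that only 1 of the counted transcripts holds were measured in windows of 75 bases, the read length. Ambra1 had 506 such windows, 344 in one transcript and 162 in the other, of 5129 and 4947 windows in all. If its value holds only reads from them, which the sources used here do not say, the level was 52.8 per 1000 windows, 10.3 times the value per kilobase. Atg4c had 534 such windows and a level of 12.2 on this scale, 5.95 times its value per kilobase. Lamp2 had 2853 and a level of 67.8, 1.26 times its value per kilobase. On this scale Ambra1 stood above 6 of the 41 members with 1 transcript, Lamp2 above 10 and Atg4c above 2, where those are taken per 1000 of all windows of their transcript. Tfeb had 805 such windows and a level of 6.90, 2.91 times its value per kilobase, and Tfe3 had 260 and a level of 3.97, 13.0 times its value. On this scale Tfeb stood above 1 of the 41 and Tfe3 above 0.

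Sequence shared with other genes touched a minority of the members. In windows of 75 bases on either strand, 28 of 44 members shared none with a transcript of another gene, 7 shared up to 5% and 9 shared more. Atg4a shared the most, 52.0%, with its annotated copy Atg4a-ps and another gene. Atg9a shared 47.5% with Gm29253, a noncoding transcript on the same strand. Becn1 shared 43.1% with Cntd1, which overlaps it on the opposite strand and had a mean of 11.7. Gabarapl1, the highest member per kilobase, shared 17.5% with 1700101I11Rik, and Bnip3l shared 20.6% with its pseudogene Bnip3l-ps. Reads from shared stretches may affect the values of these genes, and how far they do was not tested. For overlaps on opposite strands, such as that of Becn1 and Cntd1, this depends on the strand setting of the counting, which is not given in the sources used here.

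**Figure D4:**
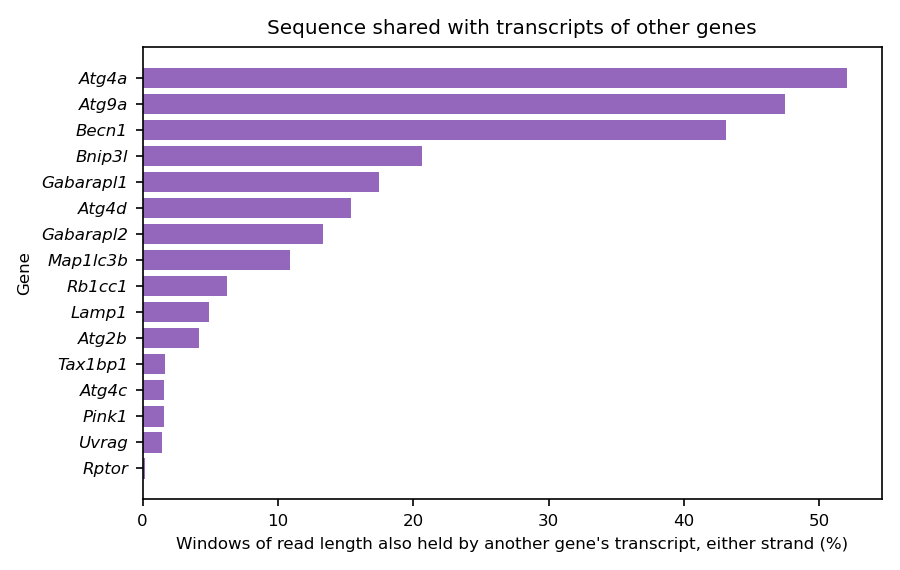
Share of the 75-base windows of each gene's counted transcript that another gene's transcript also holds on either strand (horizontal axis, %), 1 bar for each of the 16 genes with any. Atg4a (52.0%), Atg9a (47.5%) and Becn1 (43.1%) stand out, and all others are at or below 20.6%.

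The promoters were read next, since Tfeb and Tfe3 are known to bind a palindromic element, CLEAR, that is built around the E-box CACGTG. RefSeq promoters on assembly GRCm38.p6, from 250 bases before to 50 after the start of the gene, were found for 40 of the 48 members (47 promoters) and compared with all 32851. The full element, which is the core TCACGTGA with a G before it and a C after it, was in 0 of the 47, against 0.326% of all. The core was in 1, or 2.13%, against 0.974%, and the E-box, which both of these contain, was in 5, or 10.6%, against 7.15%. The antioxidant response core TGACNNNGC was in 4, or 8.51%, against 12.4%, and the FOXO site GTAAACA was in 0, against 3.65%. Both strands were searched for exactly these letters, with any base at N, so variants of a motif were not counted. A match is a description of letters and not of binding.

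The promoters of Atg3 and Lamp1 are shown because they were the only 2 member promoters with more than 1 E-box, and Atg3 the only one with the CLEAR core. E-boxes are in capitals, and both stretches read 5′ to 3′ on the plus strand of GRCm38.p6, chr16:45158725-45158773 for Atg3 and chr8:13159090-13159160 for Lamp1.
Atg3: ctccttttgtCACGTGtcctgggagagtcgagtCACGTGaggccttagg
Lamp1: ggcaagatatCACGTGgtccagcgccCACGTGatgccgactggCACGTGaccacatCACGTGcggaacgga
The Lamp1 stretch holds 4 E-boxes within 61 to 15 bases upstream of the start. At least 4 were found in 8 of all 32851 promoters, or 0.0244%. The Atg3 stretch holds 2, at 94 and 71 bases upstream, and the second lies within the CLEAR core. Single E-boxes were found in the promoters of Atg5, Atg7 and Atg14. The 4 of these genes with a level ran from 42.3 per kilobase (Atg7) to 505 (Lamp1). The 32 members found under their listed symbol with a promoter but no E-box ran from 2.05 to 1423. These are the lowest and highest levels of all members found that way, so the first range had to lie within the second. The ranges thus say nothing about E-boxes and level. The medians were 179 per kilobase with an E-box and 138 without. Members with the antioxidant response core were Atg13, Map1lc3b, Tax1bp1 and Ulk2, from 125 to 1134 per kilobase. Their median was 316, against 126 for the 32 with a promoter but without this core. Neither difference in medians was tested. Median GC content was 59.3% for the members' promoters and 52.7% for all.

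Other genes of the pathway, 78 on a list of which 75 were found, are given here by the highest and the lowest of each role. In the 7 early autophagosome genes the highest was Vmp1, a lipid scramblase of the endoplasmic reticulum, at 241 per kilobase, and the lowest was Zfyve1, a phosphoinositide-binding protein, at 64.8. In the 13 genes of autophagosome fusion, Rab7, the small GTPase of late endosomes, had 477 per kilobase and Vps39, a tethering subunit, had 0.150 over 3 transcripts. Of 10 further mitophagy genes, Vdac1, the channel of the outer mitochondrial membrane, was highest at 1701 per kilobase, and Fkbp8 and Pgam5 were listed at 0 with 2 transcripts each. Nutrient sensing genes (22) ran from 0.931 per kilobase for Tsc2, an inhibitor of mTOR signalling with 2 transcripts, to 599.9 for Prkab1, a subunit of the energy sensor AMPK. Lysosomal genes (23) had the highest median, 194 per kilobase, led by Atp6v1b2, a subunit of the proton pump, at 1141, while the acid lipase gene Lipa was listed at 0 with 2 transcripts. All 63 with 1 counted transcript had a mean of at least 109, and the 12 with more had at most 43.8.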

How the data were processed

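Retinal RNA of 16 mice was sequenced by the authors, who used Trimmomatic for trimming, TopHat2 for mapping to a mouse assembly older than GRCm38, and HTSeq for counting. The signal value used here is the mean normalized count that the authors deposited, computed by DESeq2 1.22.2 in R 3.5.1 over all libraries. The deposited table also holds the authors' own log2 fold-changes, standard errors, statistics and p-values of flight against ground, which were not used. In the deposited count tables, 32 columns match no label and were not used, so the planned edgeR test of flight against ground could not be run, and depth per library and spread between mice are not analysed here. How transcripts were combined per gene is not given in the sources used here.

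Names, lengths and shared sequence came from GENCODE M21 (GRCm38), joined for 23250 genes (19844 by accession, 2958 by symbol, 448 by older symbol). Positions were not compared with the authors' mapping. Named are every member, and the highest and lowest per role of the other pathway genes. Genes and lists were chosen with earlier results of these data known. Motifs other than CLEAR, paired ratios, windows and the Lamp1 promoter were chosen after seeing the data. Steps were tested on simulated data. The steps used scipy 1.17.1, pandas 2.3.3 and numpy 2.4.6 in Python 3.11.15, and figures matplotlib 3.10.9. The value of 1 marker gene is not reported here.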

Additional observations from a re-analysis of the deposited data

How the results depend on the processing

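The median member stood above 80.5% of ranked genes. This share was 79.1% with the shortest transcript, 77.8% with coding length, 82.2% with no division by length and 72.0% among genes with a mean normalized count of at least 10. With alternatives added after seeing the data, it was 79.5% with the length of the counted transcript, 77.8% among genes with 1 counted transcript and 78.8% with the 3 members under older symbols added. Members above the median ranked gene, 39 of 44, numbered 38 or 39 of 44 under the 4 alternatives with the same members, 32 of 43 with the minimum mean, 37 of 41 with 1 counted transcript and 40 of 47 with older symbols. Members in the top 10%, 14 of 44, numbered 13 to 16 of 44, 11 of 43, 13 of 41 and 14 of 47 in the same order. Of the 3 members with 2 counted transcripts, the level rose from 5.14 to 52.8 (Ambra1), 2.05 to 12.2 (Atg4c) and 53.7 to 67.8 (Lamp2), and of the members under older symbols from 2.37 to 6.90 (Tfeb) and 0.304 to 3.97 (Tfe3), when windows held by 1 transcript replaced length. No paired analysis was possible because the count columns carry no replicate number or group. For the same reason the alternatives planned for flight against ground (DESeq2, other size factors, no filter, leaving out libraries, another threshold) were not run. Depth limits are not given, since the columns of counts per library were not used.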

Other observations

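Low values in genes with several counted transcripts were also seen outside the pathway. Among the cell type markers, Rlbp1, a retinoid-binding protein of Müller glia, had a mean normalized count of 1.39 over 2 transcripts, while the other 4 markers of these cells had 1029.8 to 17455 over 1 each. Rbpms, a ganglion cell marker, had 5.53 over 3 transcripts, while the other 4 markers of that cell type had 461 to 1729.5. Pecam1, an endothelial marker, had 0.446 over 2 transcripts, while the other 3 endothelial markers had 51.1 (Cldn5), 99.5 (Cdh5) and 1359 (Kdr) over 1 each. The bipolar marker Trpm1 went the other way, with 2866 over 2 transcripts. Some markers were the lowest of their cell type although counted over 1 transcript. They included Best1 of the pigment epithelium (2.72), Aif1 of microglia (4.08), Lim2 of the lens (8.74) and Lhx1 of amacrine and horizontal cells (47.7). Pde6h of cones (537) and Cabp5 of bipolar cells (675) were also the lowest of their type over 1 transcript. Psap, which encodes the precursor of the saposins, had 0.142 over 6 transcripts and was the lowest lysosomal gene above 0. These genes were picked after their values were seen, and the part of the transcript number was not tested.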
